A study of Equus asinus with 12 samples.

Results

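The genes described here are the transcription factors that mark muscle stem cells and drive muscle differentiation: PAX7, the 4 myogenic regulatory factors MYF5, MYOD1, MYOG and MYF6, and the myocyte enhancer factors MEF2A, MEF2C and MEF2D. They were taken by gene name from a table of 27084 loci, with the row of highest mean used where a name had several. Of the 8 listed genes, 7 had a row under their own name, and PAX7 had none. A locus that the table describes as paired box protein Pax-7 is listed as LOC106827960, and the current donkey RefSeq annotation gives its gene identifier the symbol PAX7. Its values are given beside the 7 genes as an addition made outside the naming rule. The study sequenced RNA from the skeletal muscle of Dezhou donkeys, a Chinese breed with a Wutou and a Sanfen strain. The 4 groups were gluteal muscle of Wutou donkeys, longissimus dorsi of Wutou donkeys, gluteal muscle of Sanfen donkeys and longissimus dorsi of Sanfen donkeys, with 3 libraries in each. All animals were 24 months old, no treatment is labelled, and the design text gives 6 donkeys for the 12 libraries. Which donkey gave which library is not labelled, so the p-values rest on the spread between libraries, part of which may be technical.

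PAX7 marks satellite cells, the stem cells that lie between a muscle fibre and its basal lamina. When these cells are activated they express MYF5 and MYOD1, which commit them to the muscle lineage, and then MYOG, which drives differentiation. In adult muscle MYF6 (also called MRF4) is expressed in the fibre nuclei themselves, and MYOG in fibres is known to respond to loss of innervation. The MEF2 proteins bind DNA with the myogenic factors at muscle genes and are held in check by class II histone deacetylases until calcium signals release them. The myogenic factors act as dimers with E proteins, and ID proteins block that pairing.

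Values are FPKM, a read level scaled by transcript length and library size, which allows genes to be set beside each other. The FPKM of a library summed to 214564 to 319767, and libraries of the same group correlated at 0.890 to 0.941 over loci on the log2(FPKM + 1) scale. Sequencing depth is unknown, and low values therefore carry no counting interval. Muscle identity was plain, with a mean level of 10800 FPKM for the skeletal actin ACTA1 and 7750 FPKM for the creatine kinase CKM. CALCR, a receptor of quiescent satellite cells, was under 0.1 FPKM in each of the 12 libraries. Replicate 2 of Sanfen longissimus received the lowest library weight in a fit that estimates one, 0.438 against 0.726 to 2.39 for the others. Some differences of MYF5, MYOG, MYF6 and MEF2A are given without it too. The MYOG interaction, the MYOG difference averaged over strains and the correlations between genes are given only with it.

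The terminal factors stood above the early ones. Over the 12 libraries the mean level was 14.4 FPKM for MYOG and 9.32 FPKM for MYF6, then 4.51 FPKM for MEF2A, 3.25 FPKM for MEF2C and 2.44 FPKM for MEF2D, and 1.04 FPKM for MYOD1, 0.824 FPKM for MYF5 and 0.387 FPKM for the PAX7 locus. MYOG and MYF6 together made up 86.1% to 97.0% of the summed FPKM of the 4 myogenic factors in each library. Neighbours in this order were often not separated: MYOG exceeded MYF6 in 8 of 12 libraries, MYF6 exceeded MEF2A in 8, MEF2C exceeded MEF2D in 8, MYOD1 exceeded MYF5 in 6 and MYF5 exceeded the PAX7 locus in 9. MEF2A lay above MEF2C in 11 of 12 libraries, and MEF2D lay above MYOD1 in 12 of 12, in the closest library by a ratio of 1.001. All 7 genes passed the filter for testing, which asked for 3 or more libraries at 1 FPKM or above and kept 12408 loci. MYF5 passed through 6 libraries, none of them Wutou longissimus, and MYOD1 through 5, while the PAX7 locus reached 1 FPKM in 0 libraries and was not among the tested loci.

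**Figure D1:**
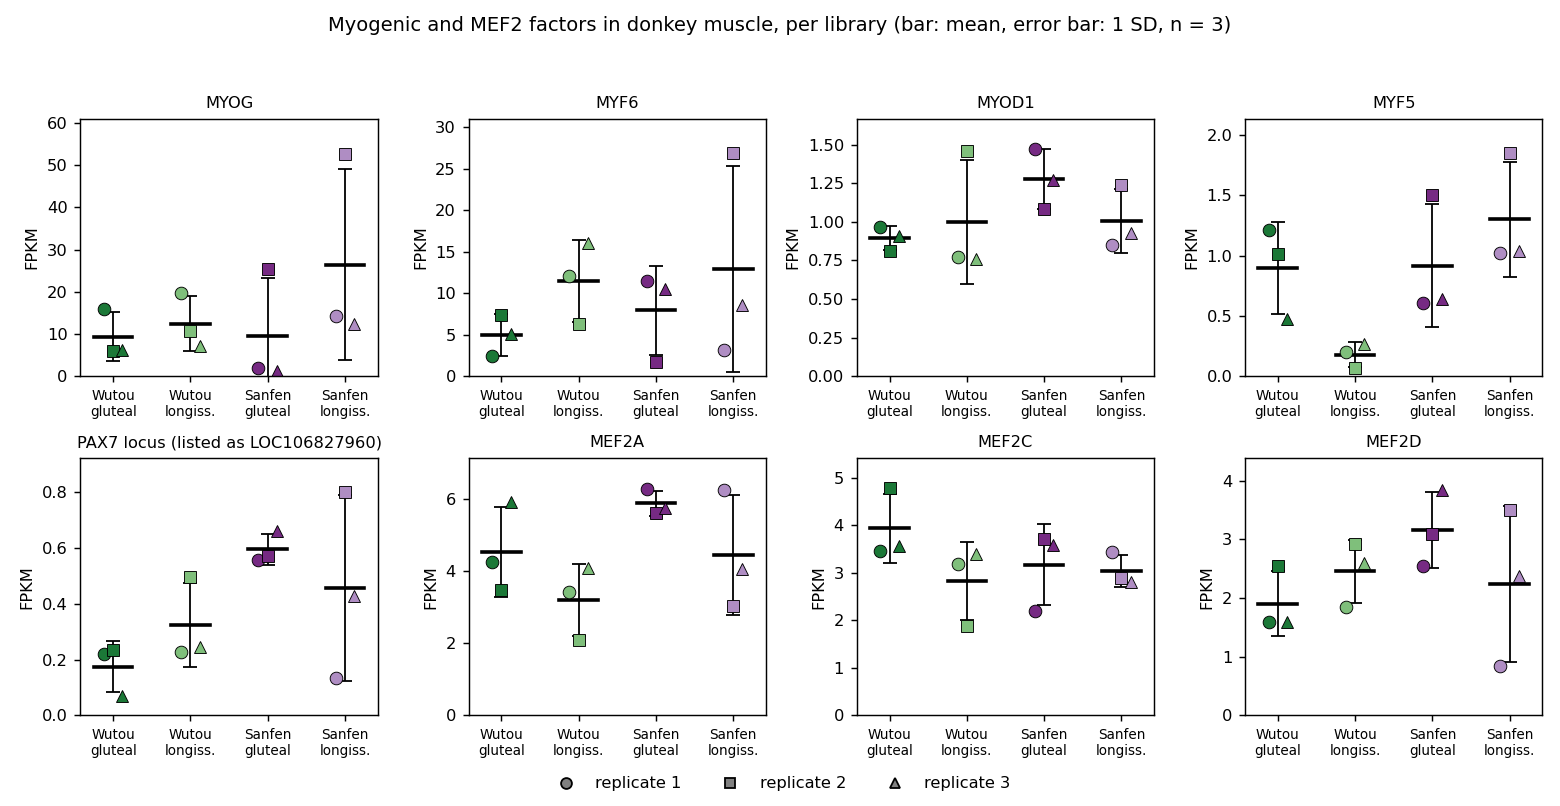
FPKM of the 8 listed genes in each library (vertical axis, linear from 0), by strain and muscle. Points are libraries with the symbol giving the replicate number, bars are group means and error bars 1 SD (n = 3), cut at 0 for MYOG in Sanfen gluteal muscle. MYF5 sits under 0.3 FPKM in all 3 Wutou longissimus libraries. MYOG, MYF6, MYF5 and the PAX7 locus spread more than 10-fold over the libraries.

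The broad pattern was of low MYF5 in the longissimus of Wutou donkeys, of MYOG that was lower in gluteal than in longissimus muscle wherever libraries of the same number were compared, and of MEF2A that was higher in gluteal muscle in the same comparison. None of these differences held after correction over the 12408 loci. With limma and Benjamini-Hochberg adjustment, 0 of the 7 genes passed 0.05 in any of the 7 comparisons, and the lowest adjusted p among their 49 tests was 0.753. At an unadjusted p under 0.05, 6 of the 49 tests passed, 4 of them those of MYF5, 1 of MYOG and 1 of MEF2A, where 2.6% to 6.56% of all tested loci did so, depending on the comparison. The 7 comparisons share the 4 groups, so these tests are not independent, and all 4 of MYF5 include the Wutou longissimus libraries. In any comparison at most 1 of the 7 genes had an unadjusted p under 0.05. Few loci of any kind passed the adjusted threshold. The share of tested loci with an adjusted p under 0.05 was 0.0242% for gluteal against longissimus muscle in Sanfen, 0% in Wutou and 0% averaged over strains. It was 0.0161% for Wutou against Sanfen in longissimus, 0.00806% in gluteal muscle and 0% averaged over muscles, and 0.00806% for the interaction of strain and muscle. In bulk muscle, fewer cells of a type and less RNA per cell cannot be told apart.

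MYF5, the earliest of the myogenic factors to appear in the mouse embryo and a gene of satellite cells and myoblasts, gave the smallest p of the set. It had 1.21, 1.01 and 0.476 FPKM in Wutou gluteal muscle, against 0.202, 0.0629 and 0.264 FPKM in Wutou longissimus. In Sanfen gluteal muscle it had 0.605, 1.504 and 0.642 FPKM, against 1.02, 1.85 and 1.04 FPKM in Sanfen longissimus. The 3 Wutou longissimus libraries were the 3 lowest of the 12, and they overlapped with neither Wutou gluteal nor Sanfen longissimus libraries.

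In longissimus, MYF5 averaged 0.176 ± 0.103 FPKM in Wutou and 1.30 ± 0.477 FPKM in Sanfen (SD, n = 3 each), a ratio of means of 0.135. The difference on the log2(FPKM + 1) scale was -0.95 (SE 0.23, 95% interval -1.46 to -0.45), with an unadjusted limma p of 0.001465 and an adjusted p of 0.757. This p ranked 24 among the 12408 loci, yet it did not pass the correction. Of all tested loci, 5.52% had an unadjusted p under 0.05 in this comparison, in which MYF5 was 1 of 7 genes to do so. Groups that did not overlap were found for 11.8% of loci, and for 1 of the 7 genes. Without replicate 2 of Sanfen longissimus the difference was -0.79, and it lay between -1.04 and -0.79 when any library was left out. The scale matters for a gene this low: with 0.1 in place of 1 added before the logarithm the difference was -2.37, with an adjusted p of 0.460.

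In Wutou, MYF5 averaged 0.899 ± 0.381 FPKM in gluteal muscle and 0.176 ± 0.103 FPKM in longissimus, a ratio of 5.11 and a log2 difference of 0.67 (SE 0.23, 95% interval 0.17 to 1.18, unadjusted limma p 0.01301, adjusted p 0.870). Of the 7 genes, MYF5 and MEF2C did not overlap between the Wutou muscles, against 12.9% of loci, and 1 had an unadjusted p under 0.05, against 5.68% of loci. The Sanfen muscles leaned the other way, with 0.917 ± 0.509 FPKM in gluteal muscle and 1.30 ± 0.477 FPKM in longissimus, and they overlapped. In libraries of the same number MYF5 was higher in gluteal muscle in 3 of 3 Wutou pairs and in 0 of 3 Sanfen pairs. The difference between the strains in the muscle effect was tested as an interaction and came to 0.95 (SE 0.33, 95% interval 0.24 to 1.66, unadjusted limma p 0.01321, adjusted p 0.9998), a comparison in which 2.6% of loci had an unadjusted p under 0.05. Averaged over muscles, MYF5 was lower in Wutou than in Sanfen by a log2 difference of -0.48 (SE 0.17, 95% interval -0.86 to -0.10, unadjusted limma p 0.0179, adjusted p 0.793), where 5.97% of loci had an unadjusted p under 0.05. In gluteal muscle the log2 difference between the strains was -0.0029, with a 95% interval of -0.51 to 0.50. Without replicate 2 of Sanfen longissimus the MYF5 interaction was 0.79. The MYF5 difference averaged over muscles lay between -0.54 and -0.39 when any library was left out.

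Other genes of satellite cells and their niche went both ways between the strains in longissimus: of 24 tested, 14 were higher and 10 lower in Wutou, with a median log2 difference of 0.06, against -0.06 over all loci. CDH15, the cadherin M of satellite cells and myoblasts, had 5.30, 7.39 and 4.52 FPKM in Wutou longissimus, against 1.78, 6.06 and 3.19 FPKM in Sanfen longissimus. FGFR4, a growth factor receptor of myogenic cells, had 1.07 ± 0.283 FPKM in Wutou and 0.612 ± 0.190 FPKM in Sanfen longissimus (SD, n = 3 each; log2 difference 0.36, unadjusted limma p 0.0379, adjusted p 0.854). SPRY1, which satellite cells of the mouse need to return to quiescence, lay on the side of MYF5, with 2.11 ± 0.718 FPKM in Wutou and 4.16 ± 0.240 FPKM in Sanfen longissimus (log2 difference -0.75, unadjusted limma p 0.0223, adjusted p 0.854). Markers of other tissue also moved with this comparison. The 7 fast fibre markers all had a positive log2 difference. Their summed level ran from 16750 to 18410 FPKM in Wutou longissimus, against 5869 to 15340 FPKM in Sanfen. TNNT3 and PVALB among them were low, with means over the 12 libraries of 1.27 and 0.531 FPKM. Both were listed at 0 in replicate 2 of Wutou longissimus. The 3 tested tendon markers all lay lower, with a summed level over the 5 listed rows of 20.7 to 28.6 FPKM in Wutou, against 34.7 to 108 FPKM in Sanfen, and both tested Schwann cell markers lay lower too. So did 4 of 4 tested adipocyte markers (median log2 difference -0.44), with a summed level of 6.47 to 10.3 FPKM in Wutou, against 9.78 to 14.6 FPKM in Sanfen, which overlapped. The part of these tissues in the MYF5 difference was not tested.

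The PAX7 locus was the lowest of the set. It had 0.222, 0.233 and 0.0712 FPKM in Wutou gluteal muscle and 0.229, 0.496 and 0.247 FPKM in Wutou longissimus. It had 0.555, 0.570 and 0.659 FPKM in Sanfen gluteal muscle and 0.136, 0.801 and 0.428 FPKM in Sanfen longissimus. In gluteal muscle the Wutou libraries lay wholly below the Sanfen ones, with means of 0.175 ± 0.0903 FPKM and 0.595 ± 0.0561 FPKM (SD, n = 3 each), while the longissimus groups overlapped. Groups that did not overlap in gluteal muscle were found for 10.9% of tested loci, which do not include this one. Fitted without the filter on low values, the gluteal difference of the PAX7 locus was -0.44 on the log2(FPKM + 1) scale (SE 0.15, 95% interval -0.78 to -0.10, unadjusted limma p 0.01627, adjusted p 0.908). In that fit 1437 of 27084 loci had an unadjusted p under 0.05, 1135 of them lower in Wutou. Another locus, described as Pax-7-like, was lower still. It had 0.0084, 0.213 and 0.143 FPKM in Wutou gluteal muscle, against 0.311, 0.271 and 0.169 FPKM in Sanfen gluteal muscle, and these groups overlapped. At such levels the depth, which is unknown, may not resolve the values.

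MYOD1, which can convert other cells to muscle when forced on and which marks activated satellite cells, was the steadiest of the 7 genes. It had 0.970, 0.811 and 0.906 FPKM in Wutou gluteal muscle and 0.772, 1.46 and 0.761 FPKM in Wutou longissimus. It had 1.47, 1.08 and 1.27 FPKM in Sanfen gluteal muscle and 0.848, 1.24 and 0.926 FPKM in Sanfen longissimus. The highest library exceeded the lowest by a factor of 1.94, and its within-group SD of 0.17 on the log2(FPKM + 1) scale was at the 17.8th percentile of loci with a mean within a factor of 1.5. In gluteal muscle the Wutou libraries lay wholly below the Sanfen ones, with means of 0.896 ± 0.0797 FPKM and 1.28 ± 0.195 FPKM (SD, n = 3 each). The log2 difference was -0.26 (SE 0.16, 95% interval -0.62 to 0.09, unadjusted limma p 0.1338, adjusted p 0.963). Rescaling each library by the median of its ratios moved it to -0.19 and quantile normalization to -0.16.

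MYOG, the factor of terminal differentiation, differed most between libraries. It had 16.0, 5.96 and 6.14 FPKM in Wutou gluteal muscle, against 19.6, 10.6 and 7.18 FPKM in Wutou longissimus. In Sanfen gluteal muscle it had 1.94, 25.4 and 1.28 FPKM, against 14.3, 52.6 and 12.4 FPKM in Sanfen longissimus. Replicate 2 was the highest library in both Sanfen muscles, and because of it the groups overlapped. The means were 9.54 ± 13.7 FPKM in Sanfen gluteal muscle and 26.4 ± 22.7 FPKM in Sanfen longissimus (SD, n = 3 each), a ratio of 0.361. Of the 7 genes, 0 had Sanfen muscles that did not overlap, against 7.54% of loci.

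Within libraries of the same number the picture was steadier. MYOG was lower in gluteal muscle in 3 of 3 Sanfen pairs, with gluteal levels 0.136, 0.483 and 0.104 times those of longissimus, and in 3 of 3 Wutou pairs, with 0.815, 0.563 and 0.854 times. Over the whole table, deviations of same-numbered libraries from their group means correlated at 0.110 to 0.246 in Sanfen and 0.0711 to 0.182 in Wutou. The labels establish pairs in neither strain, so the tests below use no block unless it is named. A locus lower in gluteal muscle in all 6 such pairs was found for 0.83% of tested loci, and in the 3 Sanfen pairs alone for 5.38%. Among the 7 genes MYOG was the 1 with all 6 pairs lower, and MYF5 was the other with 3 of 3 Sanfen pairs lower. The log2 difference in Sanfen was -1.98 (SE 0.84, 95% interval -3.83 to -0.14), with an unadjusted limma p of 0.03702 and an adjusted p of 1, and 3.57% of loci had an unadjusted p under 0.05. It was -3.10 without replicate 2 of Sanfen gluteal muscle, -1.33 without replicate 3 of that group and -1.35 without replicate 2 of Sanfen longissimus. In Wutou the log2 difference was -0.40 (SE 0.84), and the interaction was 1.58 (SE 1.19, unadjusted limma p 0.21, adjusted p 0.9998). Blocking on the library number in both strains gave the interaction a 95% interval of 0.58 to 2.58 (SE 0.43, unadjusted limma p 0.006965, adjusted p 0.985). In the same blocked fit the difference averaged over strains was -1.19 (SE 0.21, unadjusted limma p 0.0006742, adjusted p 0.540), against an SE of 0.60 without the block, and neither fit passed the correction.

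**Figure D2:**
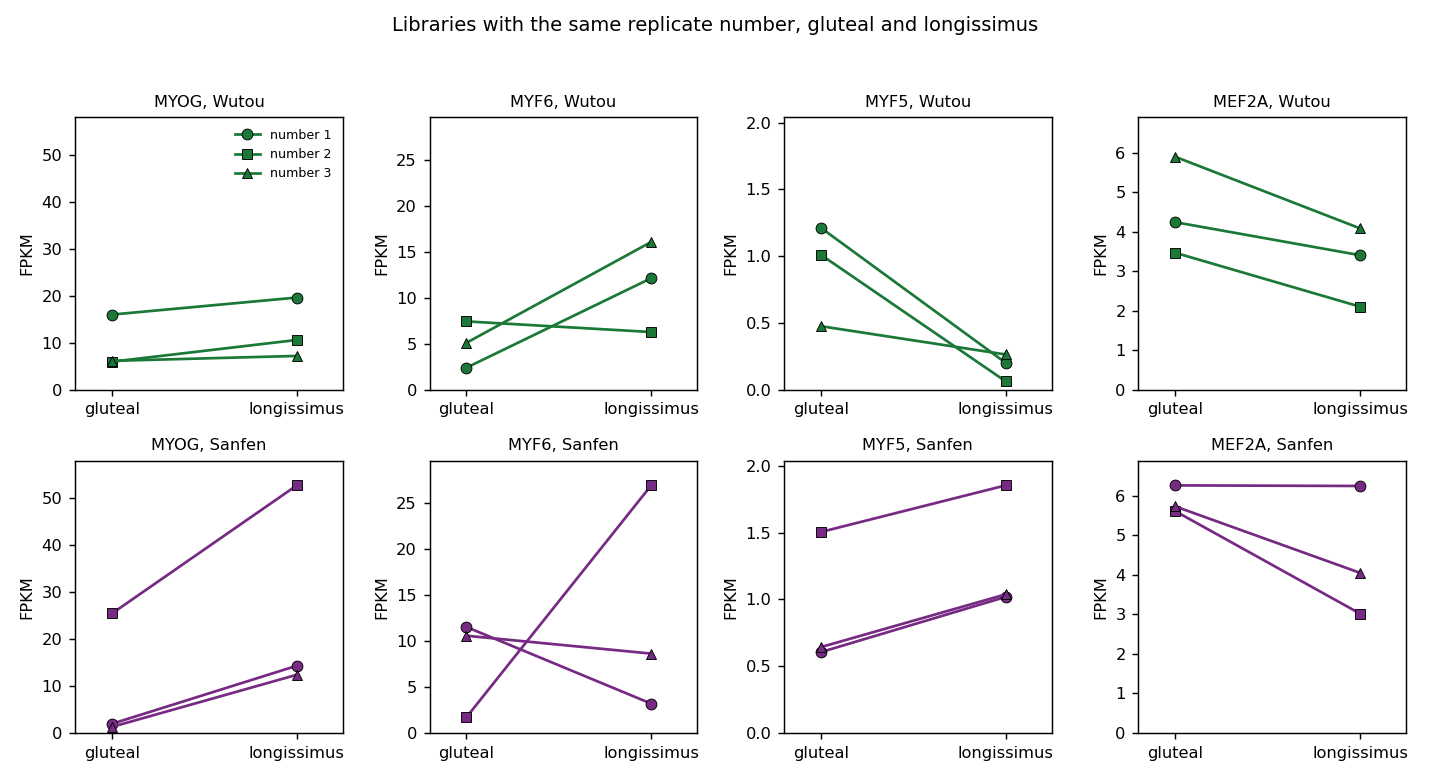
FPKM (vertical axis, same range for a gene in both strains) of MYOG, MYF6, MYF5 and MEF2A in gluteal (left) and longissimus (right) libraries, with lines joining libraries that carry the same replicate number, Wutou above and Sanfen below. MYOG lines go up toward longissimus in 6 of 6 pairs and MEF2A lines go down in 6 of 6, while MYF5 lines go down in Wutou and up in Sanfen.

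A second, low row named MYOG was read separately. Its mean was 0.483 FPKM, and it exceeded 1 FPKM in 3 libraries, with 1.29 FPKM in replicate 1 of Wutou longissimus, 1.64 FPKM in replicate 2 of Sanfen gluteal muscle and 1.41 FPKM in replicate 2 of Sanfen longissimus. The main MYOG row was also highest in these 3 libraries. Between the muscles the second row went both ways. Its means were 0.640 FPKM in gluteal muscle and 0.557 FPKM in longissimus of Sanfen, opposite to the main row. In Wutou they were 0.211 and 0.523 FPKM, and the groups overlapped in both strains. Summing both rows gave a log2 difference in Sanfen of -1.93, a sum in which the main row is by far the larger part.

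MYF6, the factor of mature fibres, spread widely too. It had 2.39, 7.43 and 5.10 FPKM in Wutou gluteal muscle and 12.1, 6.27 and 16.1 FPKM in Wutou longissimus. It had 11.5, 1.71 and 10.6 FPKM in Sanfen gluteal muscle and 3.18, 26.9 and 8.62 FPKM in Sanfen longissimus. The means were lower in gluteal muscle in both strains, at 4.97 ± 2.52 against 11.5 ± 4.93 FPKM in Wutou and 7.93 ± 5.41 against 12.9 ± 12.4 FPKM in Sanfen (SD, n = 3 each), but the groups overlapped in both. Libraries of the same number gave no common direction, with MYF6 higher in gluteal muscle in 3 of 6 pairs. Its smallest p was for gluteal against longissimus averaged over strains, a log2 difference of -0.79 (SE 0.50, 95% interval -1.89 to 0.31, unadjusted limma p 0.1442, adjusted p 0.801). This was -0.43 without replicate 2 of Sanfen gluteal muscle and also -0.43 without replicate 2 of Sanfen longissimus.

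MYOG and MYF6 did not move together. In Sanfen gluteal muscle they ran opposite to each other: replicate 2 had the highest MYOG and the lowest MYF6 of its group, and MYOG was 14.9 times MYF6 there, against 0.169 times in replicate 1 and 0.121 times in replicate 3. In replicate 2 of Sanfen longissimus both were at their highest of the 12 libraries. Over the 12 libraries Pearson's r between them was -0.08 on the log2(FPKM + 1) scale, given as a description. MYF6 and MYF5 are neighbours in the donkey RefSeq annotation with no other gene listed between them, and their r was -0.19.

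The spread of MYOG and MYF6 within groups was wide for loci of their level. The within-group SD was 1.22 for MYOG and 1.03 for MYF6 on the log2(FPKM + 1) scale, at the 95.6th and 96.0th percentiles of the 703 and 1088 tested loci with a mean within a factor of 1.5, whose medians were 0.31 and 0.30. The other 5 genes lay between the 17.8th percentile, MYOD1, and the 77.7th, MEF2D. The highest library exceeded the lowest by a factor of 41.1 for MYOG, 29.5 for MYF5 and 15.8 for MYF6. The factor was 11.25 for the PAX7 locus, 4.52 for MEF2D, 2.98 for MEF2A, 2.53 for MEF2C and 1.94 for MYOD1. For MYF5 and the PAX7 locus it rests on low values, the lowest being 0.0629 and 0.0712 FPKM.

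**Figure D3:**
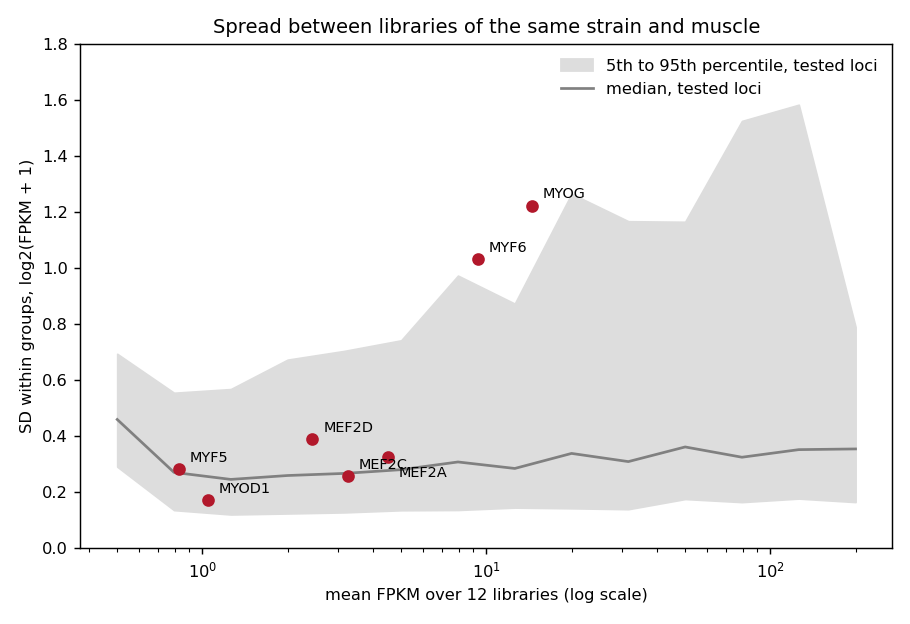
SD of log2(FPKM + 1) between libraries of the same group (vertical axis, pooled over the 4 groups) against mean FPKM over the 12 libraries (horizontal axis, log scale). Red points are the 7 genes, the grey line and band are the median and the 5th to 95th percentiles of tested loci in level bins of at least 20 loci. MYOG and MYF6 lie above the band and the other 5 genes within it.

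MEF2A, a broadly expressed MEF2 protein, was higher in gluteal muscle in each pair of libraries with the same number. It had 4.24, 3.47 and 5.90 FPKM in Wutou gluteal muscle, against 3.41, 2.10 and 4.08 FPKM in Wutou longissimus. In Sanfen gluteal muscle it had 6.27, 5.61 and 5.73 FPKM, against 6.25, 3.02 and 4.05 FPKM in Sanfen longissimus. The groups overlapped in both strains, and the closest pair was replicate 1 of Sanfen, with a ratio of 1.002. A locus higher in gluteal muscle in all 6 pairs was found for 5.08% of tested loci, and among the 7 genes for MEF2A. Averaged over strains the log2 difference was 0.39 (SE 0.18, 95% interval 0.01 to 0.78, unadjusted limma p 0.04725, adjusted p 0.753), where 6.56% of loci had an unadjusted p under 0.05. All loci leaned the same way: 65.9% were higher in gluteal muscle, and their median log2 difference was 0.07. Rescaling by the median of ratios lowered the MEF2A difference to 0.31, and it was 0.29 without replicate 2 of Sanfen longissimus.

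MEF2C, which is needed for muscle fibre integrity in the mouse, had 3.47, 4.78 and 3.57 FPKM in Wutou gluteal muscle, against 3.19, 1.89 and 3.41 FPKM in Wutou longissimus. In Sanfen it had 2.19, 3.72 and 3.60 FPKM in gluteal muscle, against 3.43, 2.89 and 2.81 FPKM in longissimus. The Wutou gluteal libraries lay wholly above the Wutou longissimus ones, the nearest values being 3.47 and 3.41 FPKM, and the Sanfen groups overlapped. In Wutou the log2 difference was 0.38 (SE 0.21, 95% interval -0.07 to 0.83, unadjusted limma p 0.09123, adjusted p 0.870), and it was 0.19 without replicate 2 of Wutou longissimus. A second MEF2C row leaned the same way, with a mean of 2.23 FPKM in Wutou gluteal muscle and 1.36 FPKM in Wutou longissimus, and with both rows summed the difference was 0.49 (adjusted p 0.870).

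MEF2D, the MEF2 protein with a muscle-specific splice form, had 1.59, 2.54 and 1.59 FPKM in Wutou gluteal muscle, against 2.54, 3.10 and 3.84 FPKM in Sanfen gluteal muscle. In longissimus it had 1.85, 2.92 and 2.60 FPKM in Wutou, against 0.849, 3.50 and 2.38 FPKM in Sanfen. To 3 digits the highest Wutou and the lowest Sanfen gluteal values were the same, 2.54 FPKM, so that the gluteal groups, which did not overlap, were only just apart. The log2 difference in gluteal muscle was -0.52 (SE 0.28, 95% interval -1.14 to 0.10, unadjusted limma p 0.09302, adjusted p 0.963).

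In gluteal muscle MYOD1 and MEF2D were the 2 of the 7 genes whose strains did not overlap, against 10.9% of loci, and 0 of 7 had an unadjusted p under 0.05, against 4.86% of loci. Both lay lower in Wutou, as did 5 of the 7 genes, while 34.2% of all loci were higher in Wutou. Slow fibre markers moved with this comparison: 6 of 6 lay lower in Wutou gluteal muscle, with a summed level of 2092 to 2469 FPKM, against 3413 to 7000 FPKM in Sanfen. The summed level of the 5 Schwann cell markers was 3.43 to 6.71 FPKM in Wutou and 7.54 to 14.9 FPKM in Sanfen gluteal muscle. The part of fibre type and nerve in the values of MYOD1, MEF2D and the PAX7 locus was not tested.

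**Figure D4:**
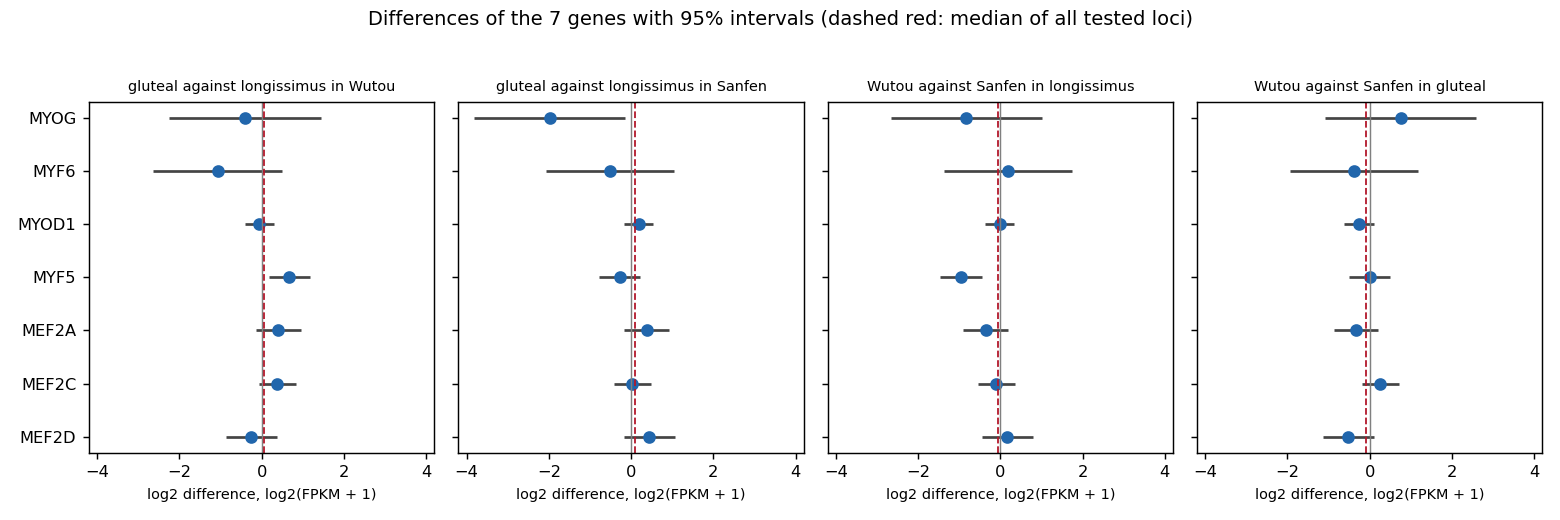
Differences of the 7 genes on the log2(FPKM + 1) scale (horizontal axis) with 95% limma intervals, in 4 comparisons; positive values are higher in the group named first. Dashed lines mark the median of all tested loci, between -0.09 and 0.08. Intervals leave out 0 for MYF5 in Wutou and in longissimus and for MYOG in Sanfen, before any correction over loci.

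Counts and medians over the 7 genes can be set beside those of all loci. For gluteal against longissimus muscle, 3 of 7 were higher in Wutou (median -0.06, against 0.05 over all loci) and 4 of 7 in Sanfen (median 0.03, against 0.08). For Wutou against Sanfen, 2 of 7 were higher in longissimus (median -0.10, against -0.06 over all loci) and 2 of 7 in gluteal muscle (median -0.26, against -0.09). The 39 tests not given here had unadjusted p-values of 0.0689 or more and adjusted p-values of 0.773 or more with limma. The intervals of the variable genes were wide: for MYOG in Wutou, the 95% interval of gluteal against longissimus ran from -2.25 to 1.44.

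By library, replicate 2 of Sanfen longissimus held the highest level of 3 of the 7 genes, MYF5, MYF6 and MYOG, and the second lowest of MEF2A. Replicate 2 of Wutou longissimus held the lowest level of 3, MYF5, MEF2A and MEF2C. Summed over the 4 myogenic factors, the level was 82.6 FPKM in replicate 2 of Sanfen longissimus and 12.6 to 32.7 FPKM in the other 11 libraries, while the sum of the 3 MEF2 genes stayed between 6.91 and 13.2 FPKM. The acetylcholine receptor subunit CHRNA1, a target of myogenic factors whose level rises after denervation, was also highest in that library, at 7.51 FPKM, against 1.25 to 4.75 FPKM in the others. It was picked after it was seen, from a list of 18 genes of the neuromuscular junction and of denervation. Other genes of that list went both ways. NCAM1 and LRP4 were highest there too, at 3.06 and 2.33 FPKM, while RUNX1 and GADD45A, at 0.916 and 1.37 FPKM, were not. A part of denervation in these levels was not tested.

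**Figure D5:**
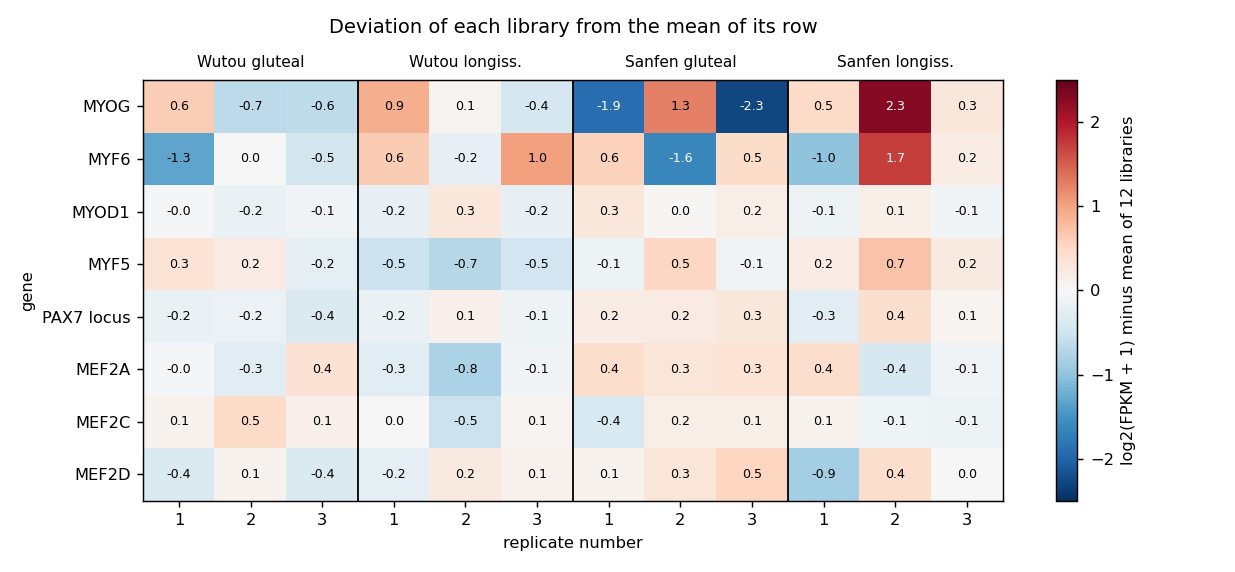
log2(FPKM + 1) of each gene minus its mean over the 12 libraries (colour and printed value), libraries in columns by group and replicate number. The widest deviations are those of MYOG, from -2.3 in replicate 3 of Sanfen gluteal muscle to 2.3 in replicate 2 of Sanfen longissimus, and MYF5 is negative in the 3 Wutou longissimus libraries.

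Among pairs of the 8 genes, Pearson's r over the 12 libraries ran from -0.69 between MYOD1 and MEF2C to 0.83 between MEF2D and the PAX7 locus, with 0.76 between MYOD1 and the PAX7 locus. These are descriptions, and the libraries share their group means. The tested loci with a symbol whose pattern was most like that of a gene were NCOA6, CDK12 and ATF7 for MYF5 (r from 0.86 to 0.89) and GLRB, REPIN1 and NDE1 for MYOD1 (0.86 to 0.91). For MYOG they were SLCO3A1, AGTRAP and OMA1 (0.87 to 0.92), and for MYF6 MAPK8IP1, SDF4 and MRPL37 (0.81 to 0.83). For MEF2A they were IDE, UTP20 and ZBTB11, each at 0.92, for MEF2C SLC25A29, ADAMTS12 and AKAP11 (0.85 to 0.90), for MEF2D BRIP1, CDK19 and OSBPL9 (0.86 to 0.94) and for the PAX7 locus FBXL7, SLC2A1 and PRKACA (0.90 to 0.94). No gene of the set was among the 3 loci most like another.

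Genes that work around these factors were read from lists on satellite cells and their niche, on E proteins and their inhibitors, on MEF2 regulators, on the neuromuscular junction and on embryonic and fusion genes. With limma 0 genes of these lists passed an adjusted p of 0.05 in the 4 comparisons within a strain or a muscle. Of 27 satellite cell and niche genes 24 were tested, of which 1, 2, 3 and 1 had an unadjusted p under 0.05 for gluteal against longissimus in Sanfen and in Wutou and for Wutou against Sanfen in longissimus and in gluteal muscle. The shares of all tested loci in these comparisons were 3.57%, 5.68%, 5.52% and 4.86%. SPRY1 had the smallest p among them, with 1.97, 1.78 and 0.866 FPKM in Sanfen gluteal muscle, against 3.97, 4.43 and 4.08 FPKM in Sanfen longissimus (log2 difference -1.05, SE 0.29, unadjusted limma p 0.00336, adjusted p 1). These groups did not overlap, and SPRY1 thus lay on the side of MYOG in Sanfen. MET, the receptor for hepatocyte growth factor that activates satellite cells, was lower in gluteal than in longissimus muscle in both strains, at 6.57 ± 1.08 against 10.5 ± 0.591 FPKM in Wutou (log2 difference -0.61, unadjusted limma p 0.0260, adjusted p 0.870) and 8.19 ± 2.31 against 12.1 ± 3.73 FPKM in Sanfen (unadjusted limma p 0.0577, adjusted p 1). TEAD4, a Hippo pathway factor that promotes differentiation of mouse myoblasts, stood lowest in Wutou gluteal muscle, at 4.22 ± 0.873 FPKM, against 6.81 ± 1.12 FPKM in Wutou longissimus (unadjusted limma p 0.0236, adjusted p 0.870) and 6.90 ± 1.61 FPKM in Sanfen gluteal muscle (unadjusted limma p 0.0228, adjusted p 0.963).

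The partners and inhibitors of the myogenic factors had 9 tested members of 18, and 0 of them had an unadjusted p under 0.05 in these 4 comparisons. ID2, which binds E proteins and keeps them from the myogenic factors, averaged 1.97 ± 0.147 FPKM in Wutou gluteal muscle, 1.45 ± 0.504 FPKM in Wutou longissimus, 2.89 ± 0.799 FPKM in Sanfen gluteal muscle and 2.08 ± 0.369 FPKM in Sanfen longissimus. The E protein gene TCF4 gave 2.10 ± 0.208, 1.70 ± 0.280, 2.54 ± 0.162 and 2.20 ± 0.108 FPKM in the same groups (SD, n = 3 each), and its smallest unadjusted limma p was 0.0684, for Wutou against Sanfen in longissimus (adjusted p 0.854). MXD4, a transcriptional repressor of the MAX network, had 4.09 ± 1.20 FPKM in Sanfen gluteal muscle and 2.37 ± 1.96 FPKM in Sanfen longissimus.

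Of 25 MEF2 regulators 19 were tested, and 0 had an unadjusted p under 0.05 in these 4 comparisons. HDAC4, a deacetylase that represses MEF2 proteins, had the smallest p, with 1.17 ± 0.309 FPKM in Wutou and 1.93 ± 0.519 FPKM in Sanfen gluteal muscle (log2 difference -0.43, unadjusted limma p 0.0528, adjusted p 0.963). In longissimus it had 1.09 ± 0.182 FPKM in Wutou and 1.77 ± 0.641 FPKM in Sanfen (unadjusted limma p 0.0815, adjusted p 0.854). SIK1, a kinase that phosphorylates these deacetylases, lay on the same side, with 5.24 ± 0.878 FPKM in Wutou and 9.19 ± 1.86 FPKM in Sanfen longissimus. In gluteal muscle it had 6.55, 4.95 and 3.15 FPKM in Wutou, against 17.0, 5.70 and 4.79 FPKM in Sanfen, so that the higher Sanfen mean there rested on replicate 1. HDAC5, of the same deacetylase class, averaged 11.7 ± 4.24 FPKM in gluteal muscle and 18.8 ± 4.37 FPKM in longissimus of Wutou, and the kinase CAMK1 averaged 2.97 ± 0.724 and 4.13 ± 0.388 FPKM in the same groups. In Sanfen the smallest p-values were those of PRKD1, a kinase acting on class II deacetylases, with 3.60 ± 1.30 FPKM in gluteal muscle and 2.71 ± 0.552 FPKM in longissimus, and of the MEF2 coactivator MAMSTR, with 2.41 ± 1.28 and 1.41 ± 0.472 FPKM.

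Of 18 genes of the neuromuscular junction and of denervation, 11 were tested, of which 1 had an unadjusted p under 0.05 for Wutou against Sanfen in each muscle, against 5.52% of all loci in longissimus and 4.86% in gluteal muscle, and 0 for gluteal against longissimus in each strain. CHRNA1 had 1.30, 1.42 and 1.33 FPKM in Wutou gluteal muscle, against 4.75, 2.76 and 2.78 FPKM in Sanfen gluteal muscle, groups that did not overlap (log2 difference -0.89, SE 0.37, unadjusted limma p 0.0352, adjusted p 0.963). In longissimus it had 1.33, 1.81 and 1.25 FPKM in Wutou, against 1.97, 7.51 and 1.42 FPKM in Sanfen, which overlapped. GADD45A, a stress gene that rises in denervated mouse muscle, had 0.275 ± 0.109 FPKM in Wutou and 1.12 ± 0.249 FPKM in Sanfen longissimus (log2 difference -0.73, unadjusted limma p 0.0339, adjusted p 0.854). RUNX1, a factor induced by denervation, had 0.948, 1.01 and 1.22 FPKM in Sanfen gluteal muscle, against 0.536, 0.916 and 0.159 FPKM in Sanfen longissimus. The adult receptor subunit CHRNE had 1.12 ± 0.416 and 0.786 ± 0.453 FPKM in the same groups. In Wutou, the dystrophin relative UTRN had 6.001 ± 1.21 FPKM in gluteal muscle and 4.47 ± 0.168 FPKM in longissimus, and LRP4, the agrin receptor, averaged 0.695 ± 0.158 FPKM in Wutou and 1.0 ± 0.120 FPKM in Sanfen gluteal muscle.

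Of 13 embryonic and fusion genes, 9 had a row and 6 were tested, and 0 had an unadjusted p under 0.05 in these 4 comparisons. ACTC1, the cardiac actin that developing and regenerating muscle also expresses, had 179, 8.22 and 0.769 FPKM in Wutou gluteal muscle, against 2.36, 2.43 and 0.566 FPKM in Sanfen gluteal muscle. The mean difference rested on replicate 1 of Wutou gluteal muscle, and the groups overlapped. NEB, the thin filament protein nebulin, averaged 644 ± 131 FPKM in gluteal muscle and 435 ± 112 FPKM in longissimus of Wutou (log2 difference 0.58, unadjusted limma p 0.0740, adjusted p 0.870). TNNT2, the cardiac troponin T of embryonic muscle, had 3.44, 2.32 and 0.131 FPKM in Sanfen gluteal muscle, against 1.70 and 0.0863 FPKM in replicates 1 and 2 of Sanfen longissimus and a value listed at 0 in replicate 3, and these groups overlapped. The adhesion molecule JAM3 averaged 1.22 ± 0.238 FPKM in Wutou and 1.68 ± 0.343 FPKM in Sanfen longissimus.

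The fibre genes show the background against which these factors were read. TNNT1, the slow troponin T, had 432 ± 41.0 FPKM in Wutou and 924 ± 440 FPKM in Sanfen gluteal muscle (log2 difference -0.996, unadjusted limma p 0.0335, adjusted p 0.963), while the oxygen store myoglobin, MB, had 2677, 3173 and 3583 FPKM in Wutou, against 9594, 2728 and 4480 FPKM in Sanfen gluteal muscle. The MB groups overlapped, and the higher Sanfen mean rested mainly on replicate 1. CKM averaged 9419 ± 1215 FPKM in Wutou and 7001 ± 968 FPKM in Sanfen longissimus, and the fast myosin light chain MYLPF averaged 3002 ± 390 and 2053 ± 1000 FPKM there. The intermediate filament gene DES averaged 1622 ± 605 FPKM in gluteal muscle and 2210 ± 364 FPKM in longissimus of Wutou. The row of the fast troponin T, TNNT3, was low for this tissue, with 0.473, 1.86 and 5.43 FPKM in Sanfen gluteal muscle, against 0.606 and 0.506 FPKM in replicates 2 and 3 of Sanfen longissimus and a value listed at 0 in replicate 1. For gluteal against longissimus muscle, 7 of 7 endothelial markers lay higher in gluteal muscle in each strain, where 58.6% of all loci did so in Wutou and 67.6% in Sanfen. CLDN5 among them was low, with a mean of 0.629 FPKM, and was listed at 0 in each Sanfen longissimus library. The summed level of the 7 was 43.0 to 80.2 against 44.7 to 57.1 FPKM in Wutou and 56.6 to 78.9 against 46.4 to 61.7 FPKM in Sanfen, so that both overlapped. The part of the vessels in the muscle differences of MYF5, MYOG and MEF2A was not tested. Macrophage markers, of which 4 were tested, lay lower in gluteal muscle in 4 of 4 in both strains, and their summed level overlapped between the muscles.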

How the data were processed

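The authors deposited FPKM per locus for 12 libraries, per the file headers. Among the tools in the submitters' processing notes are cutadapt for trimming and the aligners Bowtie2 and TopHat2, with no version. The genome build, the read counts and the way transcripts were combined into a locus value are not given in the sources used here, so counting error is unknown. Levels of the 7 named genes and of the PAX7 locus are as deposited.

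Loci that reached 1 FPKM in 3 or more libraries (12408) entered 1 linear model of 4 group means on the log2(FPKM + 1) scale, fitted with limma 3.58.1 (R 4.3.3; intensity trend), and p-values were adjusted by Benjamini-Hochberg over these loci, with a threshold of 0.05. Every adjusted p comes from limma. For strains averaged over muscles, libraries sharing strain and number formed a random block (consensus correlation 0.188). Differences on this scale understate those of low genes. The model was tested on simulated data. Python 3.11.15 with pandas 2.3.3, numpy 2.4.6 and matplotlib 3.10.9 made the tables and figures.

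Whether the numbers pair the muscles was checked by correlating the deviations of libraries from their group means. Same-numbered Sanfen libraries gave 0.246, 0.110 and 0.158, each over the limit of 0.1 that was used. The lowest Wutou value, 0.0711, fell under it. This rests on the values, not on the labels. The reported tests between muscles and of the interaction used no block, and blocked fits are named as such where given.

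The genes and the lists around them were chosen with earlier results of these data known. Each gene's test is printed for its comparison of smallest p and for any other at an unadjusted p under 0.05, with further values where the text needs them. From each list up to 2 tested genes of smallest p in each of 4 comparisons are named, and for each gene the 3 loci of highest r. CDH15 beside MYF5 and the library values of CHRNA1 were placed after they were seen. Of 6221 LOC names, 3260 matched a gene identifier of the current RefSeq donkey annotation and 1069 of these were given a symbol.

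The fits were repeated with 0.1 as the pseudocount, without the filter, with a filter at 5 FPKM, after rescaling by the median of ratios or by quantiles, with weights on libraries, on the compared libraries alone, with rows of a name summed, with the block changed, and without each library in turn.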

Additional observations from a re-analysis of the deposited data

How the results depend on the processing

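The count of 0 of the 7 genes called held in each of the 7 comparisons, under 20 or 21 alternative settings for each. That made 144 combinations of a comparison and a setting, which reuse the same libraries. The 10 differences of these genes that have the smallest p of a gene or an unadjusted p under 0.05 kept their sign. Other differences were not followed in this way, and those near 0, such as that of MYF5 between the strains in gluteal muscle, have no settled sign. The filter at 5 FPKM kept 3 of the 7 genes, so it says nothing of the other 4. The number of loci called moved with the fit: when a library was left out it ran from 0 to 5 for gluteal against longissimus in Sanfen (3 in the reported fit), 0 to 2 in Wutou (0) and 0 to 4 averaged over strains (0). For Wutou against Sanfen it ran from 0 to 6 in longissimus (2), 0 to 3 in gluteal muscle (1) and 0 to 1 averaged over muscles (0), and for the interaction from 1 to 5 (1). Other settings gave up to 7, for Wutou against Sanfen in longissimus.

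With the replicate number as a fixed block, MYOG in Sanfen kept its log2 difference of -1.98 with an SE of 0.30 (unadjusted limma p 0.0002429, adjusted p 0.416), and MEF2A averaged over strains had an unadjusted limma p of 0.01335 (adjusted p 0.570). The block changed no call of the 7 genes. In Wutou same-numbered libraries correlated at 0.182, 0.165 and 0.0711, and each correlated best with its own number, which is a hint from the data, not the design. Reads per library are unknown, which limits MYF5, MYOD1 and the PAX7 locus most.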
